A study of Crinum x powellii with 21 samples.

Results

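In the ornamental amaryllid Crinum x powellii 'Album', 21 genes of the assembled transcriptome were high in callus grown in light at a 2,4-D dose of 4 mg/L and low in callus of the other 3 culture conditions. They were chosen by CPM, the estimated counts of a gene scaled to the same total in every library. A gene had to reach at least 10 CPM in each of the 3 libraries in light with 4 mg/L and stay under 4 CPM in each of the other 8 callus libraries. A further condition on the organs removed genes concentrated in 1 organ: the highest organ mean plus 1 CPM had to be under 4 times the second highest plus 1 CPM. The selection allowed up to 200 genes, but of the 676992 genes measured only 27 met the callus thresholds and 21 also met the organ condition, so none was dropped for its rank. The same thresholds turned to callus in light with 2 mg/L were met by 192 genes, 136 of them with the organ condition. Turned to callus in darkness they were met by 1 gene with 4 mg/L and by 0 genes with 2 mg/L.

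The study pooled earlier RNA-seq data of the hybrid on 1 transcriptome, with 21 libraries of polyadenylated RNA. Bulbs bought on the market were kept cold and then at room temperature, and gave leaves (n = 3), root (n = 2), bulb (n = 3) and basal plate, the stem disc at the foot of a bulb (n = 2). Callus, which is tissue that proliferates without organised form, was raised from explants of paired bulb scales on a medium with sucrose, yeast extract and the cytokinins BAP and kinetin, which all callus groups shared. The callus groups received 2,4-D at 4 mg/L in light (n = 3) or darkness (n = 3), or at 2 mg/L in light (n = 3) or darkness (n = 2). Light meant 14 h of light and 10 h of darkness a day, and darkness lasted 24 h. Where the treatment label says 2 mg/L the library title has a 3 instead, which was not resolved, and the treatment label was used. RNA was isolated from callus with a column kit and from organs with a CTAB buffer, so callus against organ cannot be told apart from the isolation method. The labels name no donor plant or culture plate per library, so the p-values measure the spread between these libraries, which may be partly technical.

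2,4-D is a synthetic auxin that plant cells break down more slowly than the natural hormone, and with a cytokinin it is used to induce and maintain callus. Auxin acts through receptors that lead to the breakdown of transcriptional repressors, which changes the expression of many genes. Light is sensed by photoreceptors such as phytochromes and cryptochromes and drives the greening of plant tissue. The files do not pair the genes with names or functions, so no role can be given for any of the 21 genes and the callus could not be checked against marker genes. Genes are called here by their names in the files without the shared prefix Crpow_TRINITY_. In such a name the part before _g marks a component of the assembly, a set of transcripts that overlap in sequence, and _g numbers the genes within it.

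The sum of the estimated counts ran from 26403881 to 67502918 per library, with a median of 43251035. The 21 genes together held 441.7 to 501.2 CPM in the 3 libraries in light with 4 mg/L. Their sum lay between 22.9 and 37.8 CPM in light with 2 mg/L, between 35.95 and 38.6 CPM in darkness with 4 mg/L and between 27.6 and 29.0 CPM in darkness with 2 mg/L. Among organs the sum was 103.3 and 122.0 CPM in the 2 root libraries, 31.4 to 71.9 CPM in bulb, 14.1 and 70.4 CPM in basal plate and 3.15 to 3.97 CPM in leaves. In bulk tissue a lower level may come from fewer cells of a type or from less RNA per cell, and these cannot be told apart.

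The gap between callus in light with 4 mg/L and the rest is what chose the genes, so the values that follow describe it and were not tested. DN78424_c0_g1 had the widest gap: its lowest library in light with 4 mg/L plus 0.5 CPM was 13.5 times its highest other callus library plus 0.5 CPM. It stood at 46.5, 49.6 and 49.9 CPM in light with 4 mg/L (mean 48.7 ± 1.87 SD, n = 3). In the other callus it read 1.63, 2.99 and 1.27 CPM in light with 2 mg/L, 1.22, 0.482 and 1.33 CPM in darkness with 4 mg/L, and 0.188 and 0.261 CPM in darkness with 2 mg/L. The 3 high libraries were thus nearly level, and among the low ones both libraries in darkness with 2 mg/L were lowest.

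DN33400_c0_g2 was next, with a ratio of 11.2. It had 35.9, 42.7 and 44.4 CPM in light with 4 mg/L, against 0.119, 0.303 and 0.0344 CPM in light with 2 mg/L. Darkness gave 2.21, 1.57 and 2.77 CPM with 4 mg/L and 0.804 and 1.81 CPM with 2 mg/L. Here the lowest callus group was light with 2 mg/L, where the mean was 270.0-fold under that in light with 4 mg/L.

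DN94507_c0_g1 had the highest mean of the 21 in CPM, 63.6 ± 27.0 (SD, n = 3). Its 3 libraries differed most among themselves, at 93.7, 41.3 and 55.8 CPM, a ratio of 2.27 between highest and lowest. Its other callus libraries held 0.396 to 3.57 CPM, with both libraries in darkness with 2 mg/L, at 3.32 and 3.57 CPM, at the top. Corrected for transcript length, as TPM, which also has the same total in every library, the order was different. DN109846_c0_g1 had the highest mean TPM in light with 4 mg/L, 295.4 ± 68.6 (SD, n = 3), followed by DN10265_c1_g1 with 216.2 ± 58.8 and DN94507_c0_g1 with 85.6 ± 37.1. The lowest was DN2114_c0_g3 with 7.66 TPM, and the median gene had 18.2 TPM.

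Over the 21 genes the mean in light with 4 mg/L ran from 12.6 to 63.6 CPM with a median of 17.7. It exceeded the mean in light with 2 mg/L by 5.64-fold to 270.0-fold (median 15.1), the mean in darkness with 4 mg/L by 4.46-fold to 99.5-fold (median 11.3) and the mean in darkness with 2 mg/L by 4.93-fold to 344.4-fold (median 14.6). In 7 genes the mean in light with 4 mg/L was over 10-fold that of each of the other 3 callus groups. The other 3 conditions held lower levels but were seldom empty: of 168 values in the other callus libraries, 2 were at 0 counts and 105 were at least 1 CPM. The pattern is therefore a step between levels, and not a gene found in 1 condition alone. The highest of the other 3 groups was darkness with 4 mg/L for 10 genes, light with 2 mg/L for 7 and darkness with 2 mg/L for 4.

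**Figure D1:**
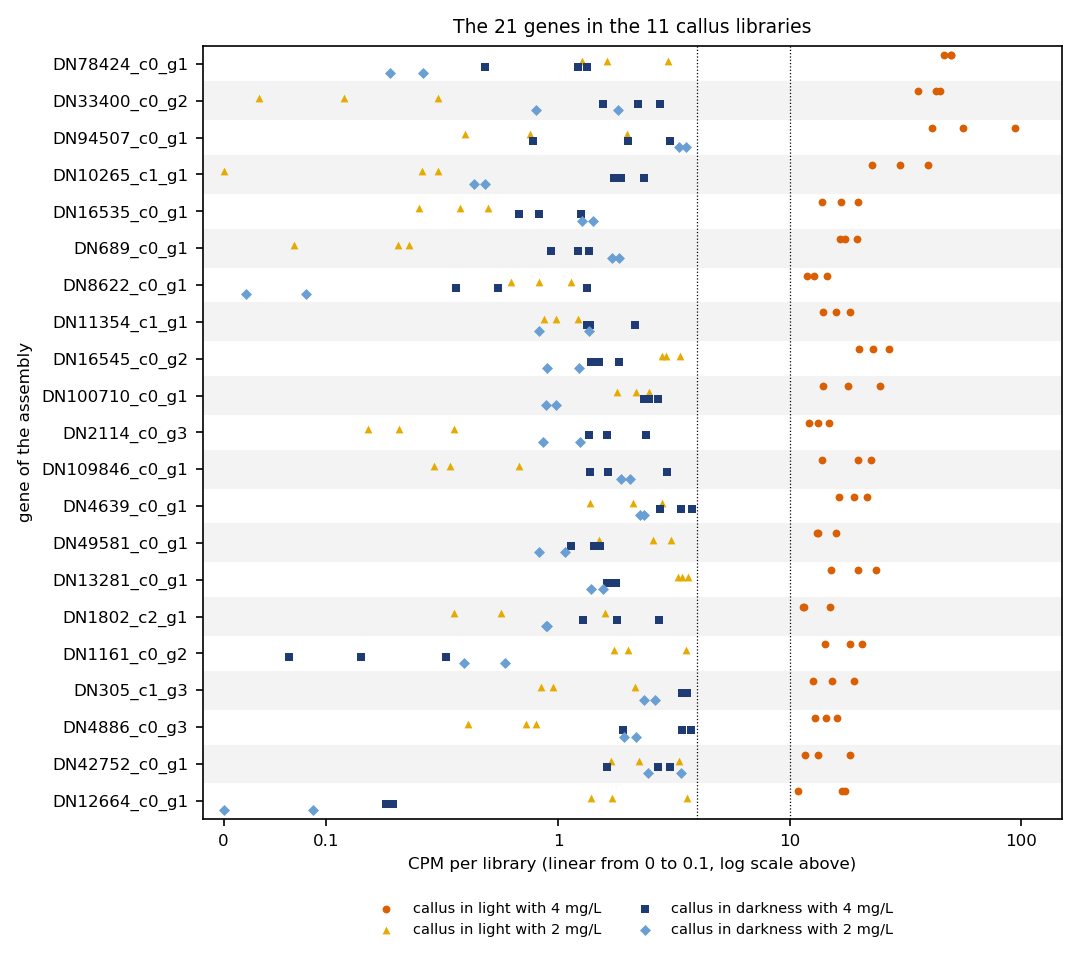
CPM of each of the 21 genes in each of the 11 callus libraries, ordered from the widest gap (top) to the narrowest, with 1 point per library and colour and shape by culture condition. Dotted lines mark the selection limits of 4 and 10 CPM: each library in light with 4 mg/L lies right of 10 CPM, and the other 8 libraries lie left of 4 CPM in an order that changes from gene to gene.

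The next 4 genes by ratio were DN10265_c1_g1 (8.12), DN16535_c0_g1 (7.42), DN689_c0_g1 (7.28) and DN8622_c0_g1 (6.74). The remaining ones, from 5.44 down to 2.78, were DN11354_c1_g1, DN16545_c0_g2, DN100710_c0_g1, DN2114_c0_g3, DN109846_c0_g1, DN4639_c0_g1, DN49581_c0_g1, DN13281_c0_g1, DN1802_c2_g1, DN1161_c0_g2, DN305_c1_g3, DN4886_c0_g3, DN42752_c0_g1 and DN12664_c0_g1. DN12664_c0_g1 was the last inside: its lowest library in light with 4 mg/L had 10.9 CPM and its highest other callus library 3.60 CPM. Just outside the first limit lay DN8465_c0_g1, with 9.91 CPM in its lowest library in light with 4 mg/L and at most 2.37 CPM in the other callus. Just outside the second limit lay DN692_c0_g1, with at least 32.8 CPM in light with 4 mg/L but 4.01 CPM in 1 other callus library.

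Within the group that defines them, the 21 genes had to reach 10 CPM in each library. A gene with a low library was thus left out, so the spread below is partly set by the selection. The highest library was 1.07 to 2.27 times the lowest, with a median of 1.34. Replicate A was the lowest of the 3 libraries for 16 genes and replicate B for 5, whereas replicate C was the highest for 14. The scaling factors that edgeR's TMM method gave these libraries were 1.19 for A, 1.09 for B and 0.919 for C, and the part of this scaling in the order of the libraries was not tested. Of the 21 genes 7 had 1 isoform, and in 13 of the 14 others the same isoform led in each of the 3 libraries, the exception being DN2114_c0_g3. Of the 21 genes, 10 (47.6%) had whole estimated counts, within 0.01, in each of the 21 libraries, against 31.7% of the 13880 genes with at least 10 CPM in the same 3 libraries. DN4886_c0_g3 was whole in 0 libraries, so its reads were shared with other transcripts and its level is uncertain. In the authors' second set of counts, from Salmon, 15 of the 21 genes met the same conditions. The ratio of Salmon CPM to first CPM, taken per gene and library in light with 4 mg/L, had a median of 0.799. Of the 6 others, 4 fell under 10 CPM in a library in light with 4 mg/L, and DN109846_c0_g1 and DN4886_c0_g3 reached 4.34 and 4.78 CPM in other callus.

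The difference between light and darkness at the lower dose was not part of the selection beyond the limit of 4 CPM, and there the 21 genes went different ways. A gene is termed called when its adjusted p is under 0.05 in edgeR's quasi-likelihood test over all genes that passed the count filter. Between light and darkness at 2 mg/L, 8 of the 21 genes were higher in light and 7 were lower, while 6 were not called. Over all 121349 genes tested, 13.4% were called higher and 12.1% lower. The median log2 difference of the 21 was 0.09, against -0.06 over all genes tested, so the opposite changes cancelled. With library totals in place of TMM the median of all genes moved to -0.38, and the split of all calls from 16290 higher and 14721 lower to 11852 higher and 23322 lower. The 21 genes then gave 8 higher and 8 lower.

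The largest rise was in DN12664_c0_g1. It had 1.71, 3.60 and 1.39 CPM in light with 2 mg/L and 0 and 0.0871 CPM in darkness with 2 mg/L, a log2 difference of 5.73 ± 0.59 (SE, edgeR adjusted p = 1.13e-08). Darkness with 4 mg/L gave 0.194, 0.181 and 0.190 CPM, above both dark libraries with 2 mg/L, while light with 4 mg/L gave 10.9, 16.8 and 17.3 CPM. For this gene each of the 6 light libraries lay above each of the 5 dark ones, at both doses. DN8622_c0_g1 was second, at 0.626, 1.14 and 0.826 CPM in light and 0.0804 and 0.0218 CPM in darkness with 2 mg/L (log2 difference 4.37 ± 0.64 SE, edgeR adjusted p = 4.89e-06). Both dark libraries together held 4 counts of each of these genes, so the size of the change is imprecise.

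The largest fall was in DN689_c0_g1, which had 0.203, 0.227 and 0.0688 CPM in light with 2 mg/L and 1.83 and 1.70 CPM in darkness with 2 mg/L. Its log2 difference was -3.15 ± 0.36 (SE, edgeR adjusted p = 7.24e-08). With 4 mg/L the same gene stood at 16.5, 19.5 and 17.4 CPM in light and 1.22, 1.37 and 0.929 CPM in darkness, the opposite order. DN33400_c0_g2, whose values are given above, likewise fell in light at 2 mg/L, by 3.05 ± 0.46 on the log2 scale (SE, edgeR adjusted p = 7.17e-06). A test of whether the light response differs between the doses was not made, because the genes were selected on the libraries in light with 4 mg/L.

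**Figure D2:**
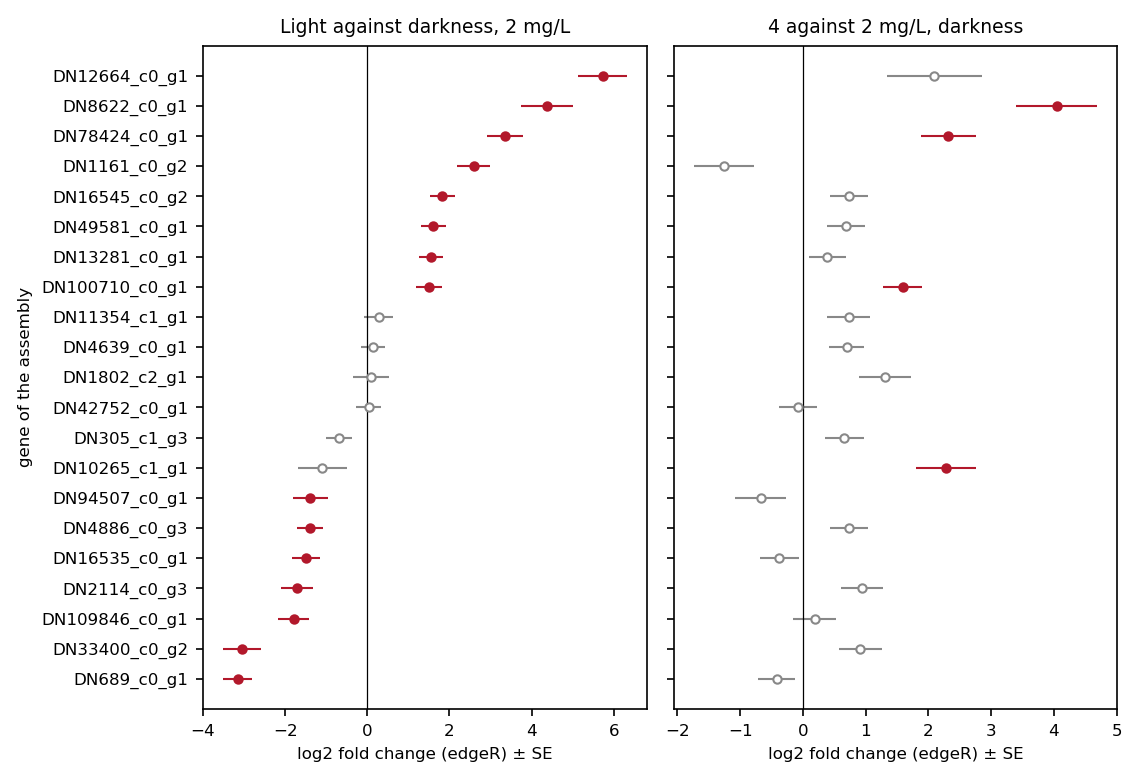
log2 fold change ± SE from edgeR for the 21 genes, for light against darkness at 2 mg/L (left) and for 4 against 2 mg/L in darkness (right), in the order of the left panel. Filled red points are called at an adjusted p under 0.05: 8 to the right and 7 to the left of 0 in the left panel, 4 to the right and 0 to the left in the right panel.

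In darkness, few genes were called between the doses. Between 4 and 2 mg/L in darkness 4 of the 21 genes were called higher at 4 mg/L and 0 lower, against 0.419% of all genes tested higher and 0.0832% lower. The spread came from the same fit, so these shares too are printed for scale alone. Over all genes 610 were called, and 9677 had an unadjusted p under 0.05. DN8622_c0_g1 rose most, from 0.0804 and 0.0218 CPM with 2 mg/L to 1.34, 0.362 and 0.549 CPM with 4 mg/L (log2 difference 4.05 ± 0.65 SE, edgeR adjusted p = 0.00226). DN78424_c0_g1 followed with 2.32 ± 0.44 (SE, edgeR adjusted p = 0.00815), on values given above. The other 2 called genes had log2 differences of 2.29 and 1.59. The median log2 difference of the 21 genes was 0.73, against -0.03 over all genes tested. The calls did not hold without replicate C in darkness with 2 mg/L. The log2 difference was then 3.29 for DN8622_c0_g1 and 2.53 for DN78424_c0_g1, and the median of the 21 genes was 0.60. That fit leaves 1 library in the group, which is then assumed to vary like the others.

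In organs most of the 21 genes were low. An organ mean of at least 1 CPM was reached by 9 of the 21 (42.9%), whereas 98.8% of the 13880 genes with at least 10 CPM in each library in light with 4 mg/L reached it. Another 9 genes stayed under 1 CPM in each of the 10 organ libraries. DN109846_c0_g1, the highest in TPM in callus, had at most 0.0529 CPM in any organ library. The limit of 4 CPM in the other callus, which the 13880 genes did not have to meet, bears on the shares above. The organ condition of the selection also limits this picture, since it removed 6 genes, 5 of them highest in root and 1 in bulb. The nearest on either side of that limit were DN1802_c2_g1, with a ratio of organ means, each plus 1 CPM, of 3.08, and DN42167_c0_g1, which was left out with 4.76.

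Root was the organ with the highest mean for 15 of the 21 genes, basal plate for 4, bulb for 1 and leaves for 1. Some of these ranks were near ties, such as 0.396 CPM in root and 0.395 CPM in bulb for DN94507_c0_g1. DN2114_c0_g3 had 0.357 CPM in root and 0.350 CPM in basal plate, and DN109846_c0_g1 led in root with 0.0528 CPM. The same tally over all genes was not made, so no preference of the 21 for root is read from it. Leaves were the lowest organ for 18 genes, ties included, and 9 genes (42.9%) had 0 counts in each of the 3 leaf libraries. Of the 13880 genes with at least 10 CPM in light with 4 mg/L, 1.15% had 0 counts in leaves, but these were not held under 4 CPM in the other callus. A mean of at least 1 CPM was reached by 8 of the 21 genes in root, 7 in basal plate, 3 in bulb and 1 in leaves.

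DN4886_c0_g3 and DN1802_c2_g1 had a higher mean in an organ than in callus in light with 4 mg/L. DN4886_c0_g3 had 12.8, 15.9 and 14.3 CPM in that callus but 92.3 and 58.3 CPM in root and 18.9, 52.2 and 42.8 CPM in bulb. Its basal plate libraries differed, at 17.6 and 1.92 CPM, and its leaves held 0.906, 0.827 and 1.02 CPM. Root was thus highest, without overlap with any other organ, and leaves lowest. DN1802_c2_g1 was highest in bulb, with 7.99, 15.1 and 16.5 CPM against 11.4, 11.6 and 15.0 CPM in callus in light with 4 mg/L. It had 1.74 and 1.66 CPM in root, 6.87 and 0.356 CPM in basal plate and 0 counts in leaves.

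DN4639_c0_g1 exceeded its callus mean in 2 libraries, at 22.1 CPM in 1 root library (10.8 in the other) and at 34.7 CPM in basal plate replicate 1, while basal plate replicate 2 had 1.28 CPM. Both basal plate libraries stand apart for these 3 genes, replicate 1 being the higher each time. DN33400_c0_g2 came next among organs, with 3.73 and 7.36 CPM in root and 1.39 and 1.18 CPM in basal plate. Its bulb libraries held at most 0.100 CPM and its leaves at most 0.0317 CPM.

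**Figure D3:**
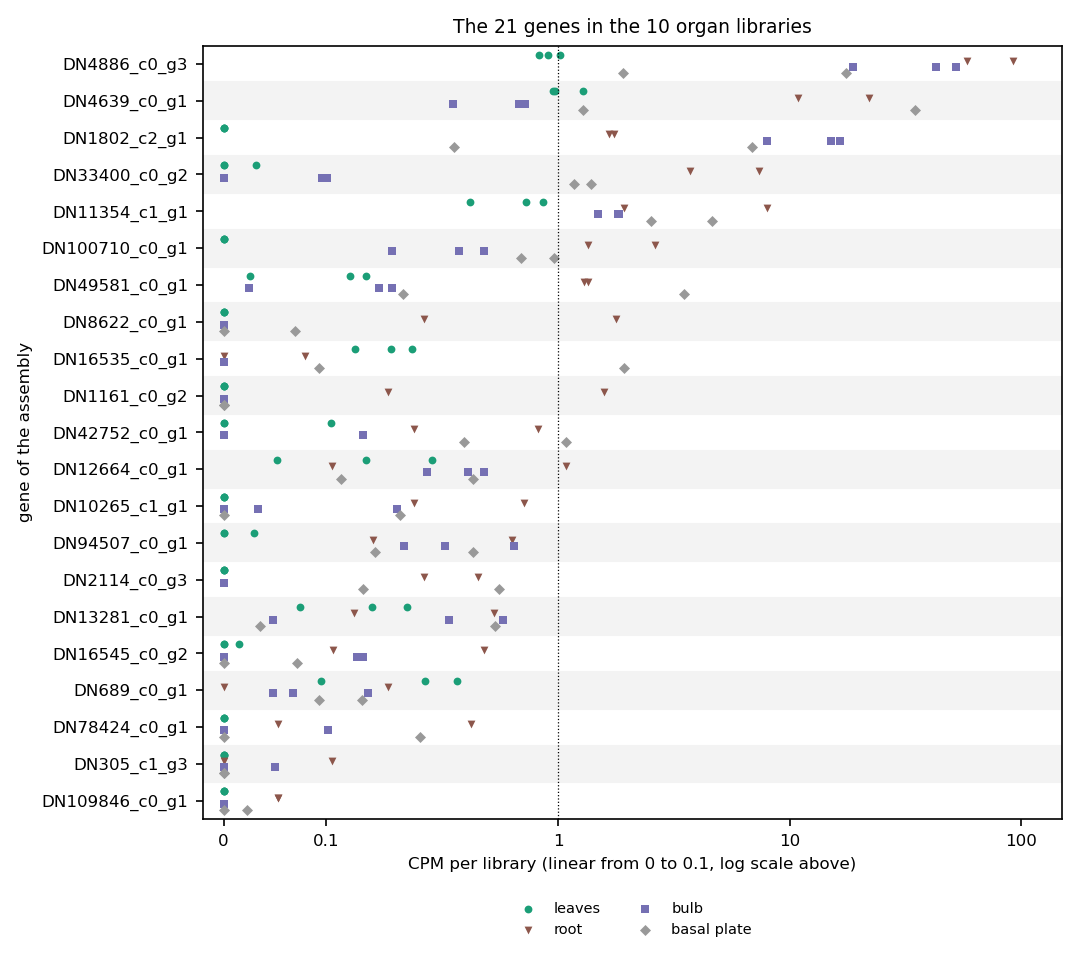
CPM of each of the 21 genes in each of the 10 organ libraries, ordered by the highest organ mean, with 1 point per library and colour and shape by organ; the dotted line marks 1 CPM. The genes at the top reach 10 CPM or more in root, bulb or basal plate, the leaf points lie at or left of the other organs for most genes, and 9 genes stay left of 1 CPM in each library.

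Between organs 14 of the 21 genes had enough counts to be tested, some of them while under 1 CPM in each organ library. Each passed through the organ libraries in which it was highest, so the counts below describe those 14 and not the whole group. The limit on organ ratios in the selection also bears on them. For both reasons the shares over all genes are printed beside the counts for scale alone, and nothing is read from setting them side by side. In leaves against bulb 0 were called higher and 6 lower, where 22.5% of all 100919 genes tested were called higher and 19.6% lower. DN1802_c2_g1, at 0 counts in leaves and 1452 in bulb, was at least 949.0-fold lower in leaves, taking 3 counts over the leaf libraries as the floor (edgeR adjusted p = 8.42e-06). DN100710_c0_g1 was at least 24.8-fold lower, with 0 counts in leaves against 0.477, 0.372 and 0.191 CPM in bulb (edgeR adjusted p = 0.000103).

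In leaves against root 12 of the 14 were called lower in leaves and 0 higher, against 18.9% lower and 16.6% higher over all genes tested. DN100710_c0_g1, at 2.62 and 1.35 CPM in root, was at least 131.0-fold lower in leaves (edgeR adjusted p = 4.45e-06). DN33400_c0_g2 differed by -9.51 ± 0.85 on the log2 scale, with 1 count in leaves and 420 in root (SE, edgeR adjusted p = 6.20e-07).

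In root against bulb 6 were called higher in root and 1 lower, against 5.28% and 3.3% of all genes. DN8622_c0_g1 and DN2114_c0_g3 had 0 counts in bulb and were at least 34.3-fold and at least 12.0-fold higher in root (edgeR adjusted p = 0.00791 and 0.0255), on 77 and 27 counts in root. The 1 fall was DN1802_c2_g1, by 3.08 ± 0.79 on the log2 scale (SE, edgeR adjusted p = 0.0265). This count depended on single libraries: it was 3 without root replicate 1, 3 without bulb replicate 1, 3 without bulb replicate 2, 2 without bulb replicate 3, and 11 without either basal plate library, when more genes passed the filter. DN1802_c2_g1 was no longer called without any 1 of the root or bulb libraries (log2 difference -3.32 to -2.92), and neither was DN2114_c0_g3 (6.70 to 7.41).

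In basal plate against bulb 4 were called higher and 2 lower, against 11.5% and 10.5% of all genes. DN2114_c0_g3 was at least 8.89-fold higher in basal plate, with 28 counts there and 0 in bulb (edgeR adjusted p = 0.0227), a call that was lost without basal plate replicate 1, without either root library and without bulb replicate 1 or 2 (log2 difference 5.12 to 6.64). DN4639_c0_g1 rose by 4.30 ± 0.83 on the log2 scale (SE, edgeR adjusted p = 0.00305), but without basal plate replicate 1 its difference was 0.39 and was not called. DN4886_c0_g3 fell by 2.62 ± 0.64 (SE, edgeR adjusted p = 0.0107), and by 2.26 and uncalled without bulb replicate 2. DN1802_c2_g1 fell by 2.51 ± 0.76 (SE, edgeR adjusted p = 0.0317), and its call was lost without any 1 of the 3 bulb libraries, at -2.72 to -2.32. In all, 3 genes were called without bulb replicate 1 and 2 without bulb replicate 2. With library totals in place of TMM the median of all genes rose from 0.54 to 1.33 in this comparison and from 0.50 to 1.18 in leaves against bulb. All calls in basal plate against bulb then split into 32163 higher and 3376 lower in place of 11564 and 10607, and those of the 14 genes into 5 higher and 1 lower. In leaves against bulb they split into 39222 higher and 11145 lower in place of 22689 and 19754, with 0 of the 14 genes higher and 5 lower.

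The 21 genes came from 21 different components of the assembly, and 12 of these components held other genes, 16 in all. Such neighbours share sequence with the selected gene, so reads may be divided between them. Of the 16, 13 reached 1 CPM in a library. They were reached through genes chosen for being high in light with 4 mg/L, and the limits had been applied to them as to every gene, so their values are described without a test.

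In some components the neighbour was highest in the same callus as the selected gene. DN1161_c0_g1 had 7.68, 9.20 and 12.7 CPM in light with 4 mg/L and 0.0388, 0.0402 and 0.0845 CPM in darkness with 4 mg/L. The selected gene of its component, DN1161_c0_g2, had 14.2, 18.3 and 20.6 CPM and 0.329, 0.141 and 0.0634 CPM in the same libraries. DN1802_c2_g2 had 3.61, 5.11 and 5.05 CPM in light with 4 mg/L and 0.233, 0.121 and 0.296 CPM in darkness with 4 mg/L. Both were under 10 CPM in at least 1 library in light with 4 mg/L, which alone left them out. DN1802_c2_g2 also missed the organ condition, with means of 17.4 CPM in bulb and 3.51 CPM in basal plate. DN2114_c0_g1, with 15.8 to 23.2 CPM in light with 4 mg/L and at most 1.37 CPM in other callus, met the callus limits and was removed by the organ condition.

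In other components the neighbour had overlapping values in light with 4 mg/L and in the other callus. DN2114_c0_g2 held 11.9 to 13.5 CPM in light with 4 mg/L and 12.3 to 15.4 CPM in the other 8 callus libraries, whereas DN2114_c0_g3 of the same component had 12.2, 13.2 and 14.8 CPM and 0.151 to 2.39 CPM. DN33400_c0_g1 held 6.71, 7.61 and 7.46 CPM in light with 4 mg/L and 5.18 to 8.79 CPM in other callus, while DN33400_c0_g2 had at least 35.9 CPM in light with 4 mg/L and at most 2.77 CPM elsewhere in callus. The order was opposite for DN42752_c0_g3, with 1.14, 0.869 and 1.11 CPM in light and 2.17, 3.94 and 1.33 CPM in darkness at 4 mg/L. DN16545_c0_g1 was highest among callus groups in light with 2 mg/L, at 12.1 to 12.9 CPM, against 8.18 to 9.14 CPM in light with 4 mg/L. It held 4.42 to 6.81 CPM in darkness with 4 mg/L and 4.01 to 4.26 CPM in darkness with 2 mg/L. The selected gene of its component, DN16545_c0_g2, had 19.9 to 26.7 CPM in light with 4 mg/L and 2.80 to 3.36 CPM in light with 2 mg/L.

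**Figure D4:**
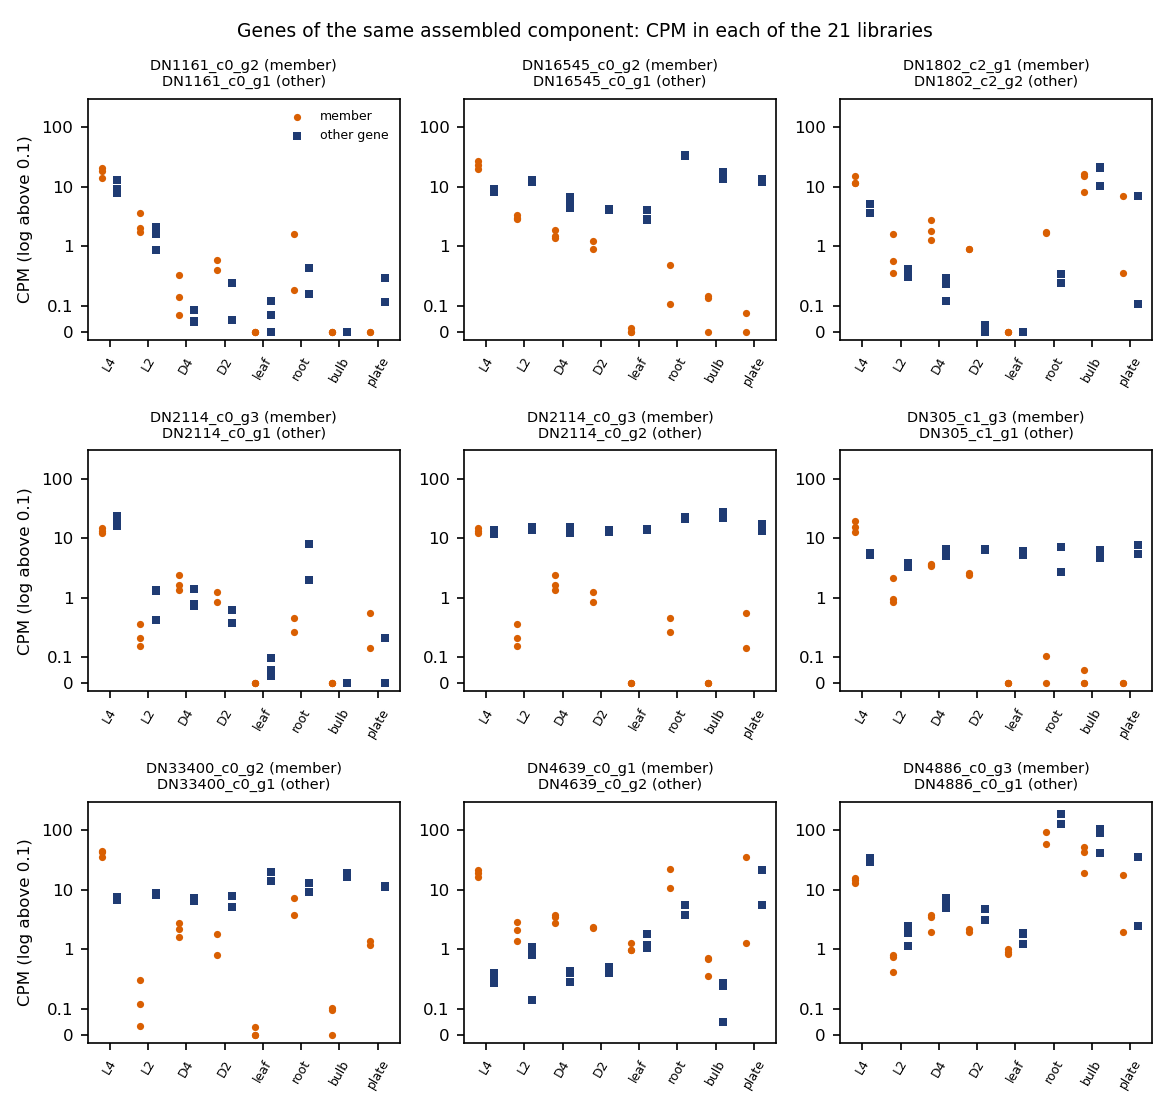
CPM in each of the 21 libraries for the 9 neighbouring genes that reach 5 CPM in a library (blue squares) and the selected gene of the same component (orange circles), with L and D for light and darkness, 4 and 2 for the dose in mg/L of 2,4-D, and a log scale above 0.1 CPM. DN1161_c0_g1, DN1802_c2_g2, DN2114_c0_g1 and DN4886_c0_g1 are highest among callus groups in light with 4 mg/L like the selected gene, while DN2114_c0_g2 and DN33400_c0_g1 stay between 5.18 and 15.4 CPM in callus.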

How the data were processed

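Polyadenylated RNA was sequenced in 21 libraries, 11 of callus and 10 of organs. The submitters' processing notes name fastp 0.23.4, kallisto 0.46.1 and Salmon 1.4.0, with no role or order. The authors deposited estimated counts per isoform and TPM per gene, per the file headers, once from Salmon and once from a quantifier that the file headers leave unnamed, called the first here. The gene tables they deposited as counts hold rescaled TPM, so the first quantifier's isoform counts were summed per gene, divided by the library total for CPM and rounded for the tests. This is another unit than the design assumed.

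Differences were tested with edgeR 4.0.16 in R 4.3.3 (quasi-likelihood test, TMM scaling, filterByExpr, Benjamini-Hochberg adjustment over all genes tested, threshold 0.05), with the 11 callus libraries in 1 fit and the 10 organ libraries in another. The count test was tested on simulated data. Groups follow the source and treatment labels. The genes, comparisons and limits were chosen with earlier results of these data known. Genes named are the 2 with the highest selection ratio, the highest callus mean and the highest organ mean, the largest called changes per comparison (2 each way), those nearest the limits, and the 2 whose component holds the most abundant other gene in the rest of the callus; others were named after their values were seen.

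Alternatives were RLE scaling, library totals, no filter, a filter of 1 CPM in 2 libraries, Salmon counts, DESeq2 1.42.0, limma 3.58.1 on TPM, as log2 after adding 1 or 0.1, a replicate block, each library left out, and other selection limits. Replicates share numbers or letters in their titles, but the deviations of libraries with the same label correlated between -0.106 and 0.163 over 15 pairs in callus and between -0.162 and 0.059 over 12 pairs of organs, so the labels were not taken as pairs. Limits from 0 counts cover counting error only. With 43251035 counts in the median library, precision at under 1 CPM is set by few counts. No sequences are given, since none are in the tables used here.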

Additional observations from a re-analysis of the deposited data

Results flagged for a closer look

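In 9 of the 21 genes each light library lay below each dark library at 2 mg/L, while at 4 mg/L each light library lay above each dark one. Of all 121349 genes tested, 35.4% had each light library below each dark one at 2 mg/L, so 9 of 21 is near that share. In the other direction the share of all genes was 17%, and 17 of the 21 genes had no overlap either way. Both shares used CPM by library total, under which the median log2 difference of all genes was -0.38. With the TMM scaling of the log2 differences that follow, it was -0.06. The log2 difference of light against darkness at 2 mg/L was -3.15 for DN689_c0_g1, -3.05 for DN33400_c0_g2, -1.79 for DN109846_c0_g1, -1.71 for DN2114_c0_g3, -1.50 for DN16535_c0_g1, -1.39 for DN4886_c0_g3, -1.38 for DN94507_c0_g1, -1.09 for DN10265_c1_g1 and -0.68 for DN305_c1_g3. The last 2 did not reach the threshold in edgeR. The order at 4 mg/L was fixed by the selection of the genes, so the difference between the doses was not tested.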

How the results depend on the processing

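The count of 15 genes called between light and darkness at 2 mg/L lay between 14 and 16 under each alternative run, including the library left out in turn. The count of 4 genes called between the doses in darkness became 5 with no filter, 3 with DESeq2 and 2 with library totals. It was 2 with the filter of at least 1 CPM in 2 libraries, 0 with limma on log2(TPM + 1) and 1 on log2(TPM + 0.1). With a library left out of a group of 3 it was 3 or 4. The cause was not tested. Leaving out replicate C in darkness with 2 mg/L leaves 1 library in that group, and the log2 differences are given above. With limma on log2(TPM + 1), 3 genes in place of 6 were called in leaves against bulb and 1 in place of 6 in basal plate against bulb; this pseudocount understates changes of low genes. The 1 CPM filter tested fewer genes and left 7 of 12 calls in leaves against root. With a library left out, 2 to 11 genes were called in root against bulb and 2 to 7 in basal plate against bulb. The replicate block, on labels that do not pair the libraries, gave 15 genes between light and darkness at 2 mg/L, 4 between the doses in darkness, 6 in leaves against bulb, 5 in root against bulb, 4 in basal plate against bulb and 10 in leaves against root. Other selection limits moved how many of the 21 genes were kept: 21 became 9 on TPM per gene, 4 with at least 20 CPM in light with 4 mg/L, 3 with under 2 CPM in other callus and 13 with counts summed per component. Counted instead over every gene that met the altered limits, those with an organ mean of at least 1 (9 of 21 in the report) were 16 of 27 on TPM, 1 of 4 with at least 20 CPM, 2 of 3 with under 2 CPM and 15 of 27 without the organ condition. For the largest called changes of the 21 genes, up to 2 each way per comparison (17 log2 differences), there were 321 alternative values, of which 279 kept their call, 42 lost it and 0 changed sign; other log2 differences printed are not in this tally. Genes at under 1 CPM rest on few counts per library.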
